A study of Mus musculus with 5 samples.

Results

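Histone lysine methyltransferases and demethylases, the enzymes that place and remove methyl groups on lysines of histone tails, were followed in invariant natural killer T (iNKT) cells sorted from livers with and without hepatocellular carcinoma (HCC). Members were the protein-coding genes whose symbol starts with Kdm, Kmt or Setd and a digit, together with Ezh1, Ezh2, Ehmt1, Ehmt2, Nsd1, Nsd2, Nsd3, Dot1l, Ash1l, Suv39h1 and Suv39h2, which gave 45 of the 55364 gene IDs in the count tables. The HCC group held 3 libraries of male wild-type (WT) C57BL/6 mice injected at 15 days of age with diethylnitrosamine (DEN), a liver carcinogen, at 25 mg/kg, and the healthy group held 2 libraries of WT mice given PBS. Livers were taken at 38 to 42 weeks of age, and TCR beta-positive cells that bound CD1d tetramers carrying PBS57, a glycolipid antigen of iNKT cells, were sorted for 3' mRNA sequencing. The submitters give 3 mice with HCC and 2 healthy mice, while a number is shared by the names of the HCC 2 and HCC 3 tables, so that whether these came from separate animals was not settled here. The p-values measure only the spread between these libraries.

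Methylation of a histone lysine marks a stretch of chromatin without changing its DNA. Methylation of lysine 4 of histone H3 (H3K4) marks promoters and enhancers in use, that of H3K36 and H3K79 marks transcribed gene bodies, and that of H3K9, H3K27 and H4K20 marks silent or compacted chromatin. In mouse iNKT cells the H3K27 demethylases Kdm6a (UTX) and Kdm6b (JMJD3) are known to be needed for development, and the H3K27 methyltransferase Ezh2 is known to restrain the iNKT lineage.

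Reads of these genes were few. Total counts were 1718452 to 2224356 per library, and the 45 members together held 866, 978 and 955 counts in HCC 1, 2 and 3, against 915 and 838 counts in healthy 1 and 2. That was 0.0411 to 0.0569% of a library. Levels are given as CPM, the counts of a gene per 1000000 counts of its library, where 1 count was worth 0.450 to 0.582 CPM and a count of 0 allowed a level of up to 1.35 to 1.75 CPM (3 counts, a one-sided 95% bound, while the Poisson limits given below are two-sided). These floors, like the intervals below, cover counting error only. The kit reads transcript 3' ends, so that counts were not divided by gene length. In cells measured in bulk, fewer cells of a type and less RNA per cell cannot be told apart.

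The sorted cells carried T cell transcripts in every library. T cell and iNKT markers (15 genes) summed to 8458, 7671 and 8159 CPM in HCC 1, 2 and 3, against 5715 and 8753 CPM in healthy 1 and 2, while Zbtb16, the transcription factor that defines the lineage, had at most 3 counts. Klrb1c of the T cell and iNKT list varied widely within both groups. It was at 465, 20.9 and 333 CPM in HCC 1, 2 and 3, against 382 and 5.49 CPM in healthy 1 and 2. Transcripts of other liver and blood cells were present too. Hepatocyte markers summed to 151, 471 and 1039 CPM in HCC 1, 2 and 3, against 102 and 97.2 CPM in healthy 1 and 2, and 14 of 14 tested were fitted higher. Several of these passed edgeR's filter on low counts through HCC libraries alone, which favoured that direction. Among them were Apoa1, with 3 and 1 counts in healthy 1 and 2, and Ttr, with 3 and 3. Erythroid markers summed to 7391, 17083 and 15384 CPM in HCC 1, 2 and 3, against 2975 and 2787 CPM in healthy 1 and 2, and 5 of 5 tested were fitted higher. For both lists every HCC sum exceeded both healthy sums, and their part in the members' values was not tested. Sums of B cell markers (113 to 177 CPM in HCC and 35.97 to 125 CPM in healthy libraries), macrophage and Kupffer cell markers (11.1 to 33.8 CPM in HCC and 8.78 to 43.2 CPM in healthy libraries) and liver endothelium markers (1.75 to 7.43 CPM in HCC and 0.549 to 4.95 CPM in healthy libraries) overlapped, and those of neutrophil markers (2.12 to 12.8 CPM in HCC and 0 to 1.10 CPM in healthy libraries) did not. Vsig4 and Timd4 of the macrophage list, 6 of 10 neutrophil markers and 4 of 8 endothelium markers had no count in any library.

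Of the 45 members, 27 had a count in all 5 libraries, and 12 had a count of 0 in healthy 1. The 10 members with the highest mean level held 61.8% of all member counts. In order of mean level they were Ezh1, Kdm2b, Kdm2a, Kdm5a, Setd1b, Nsd3, Ehmt2, Setd3, Setd5 and Kdm4a, and no member passed 72.7 CPM in any library. A mean of 10 CPM or more was reached by 15 members, and 17 stayed under 5 CPM. Tests were possible for 29 members, which passed edgeR's filter on low counts, and the other 16 had at most 31 counts in any library.

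**Figure D1:**
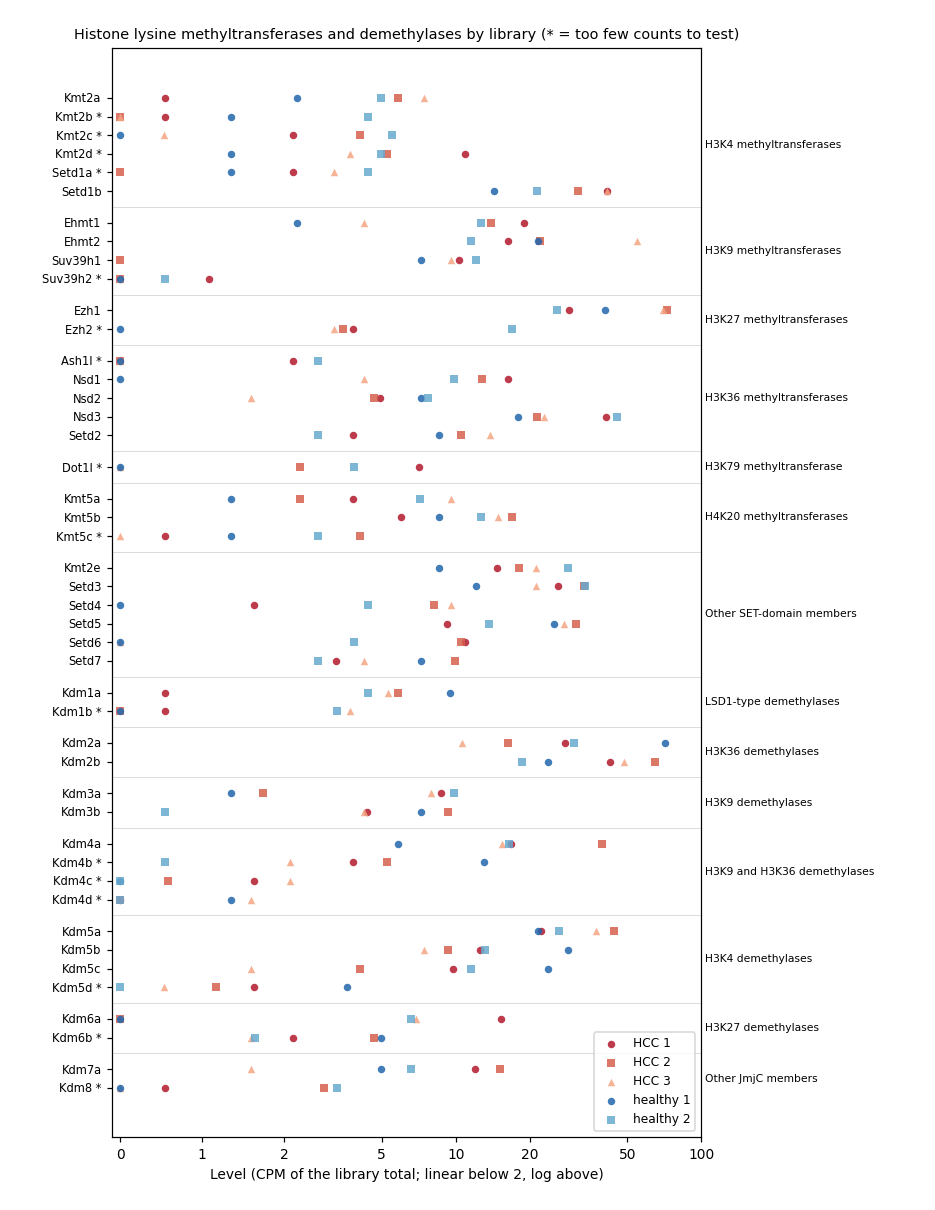
Level of each of the 45 members in each library, in CPM of the library total (linear below 2, log above), grouped by the residue the enzyme acts on. Red symbols are HCC and blue symbols healthy libraries, and a star marks the 16 members that did not pass edgeR's filter on low counts and were not tested. For most members the red and blue symbols are interleaved, and Ezh1, Kdm2a and Kdm2b reach the highest levels.

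No member passed the threshold between HCC and healthy livers in the test over all genes. In edgeR's quasi-likelihood test 0 of the 29 tested members passed an adjusted p of 0.05 in either direction, and over all 8468 tested genes the share called was 0% as well. The smallest adjusted p of a member was 0.9999 with edgeR. At an unadjusted p under 0.05 there were 3 members, Kdm2a, Kdm2b and Kdm5c, beside 3.63% of all tested genes. DESeq2 and limma-voom also called 0 members, each with 2 at an unadjusted p under 0.05. With HCC 2 and HCC 3 summed as 1 library, 0 members had an unadjusted p under 0.05 in edgeR and 0 were called, beside 133 and 0 of all 8314 tested genes. The SE of the log2 fold change had a median of 0.93 over the tested members and ranged from 0.46 for Kdm2b to 1.80 for Setd6.

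For 2 tested members, Kdm2b and Setd1b, every HCC library exceeded both healthy libraries, and for 4, Kdm2a, Kdm5b, Kdm5c and Nsd2, every HCC library was below both. Together these were 6 of 29 (20.7%), beside a background of 18.3% of all tested genes, and that share was near the background. Nsd2 passed the filter on low counts through its 16 and 14 counts in healthy 1 and 2 alone. Its place below both was thus favoured by the filter and is no support. Over all genes 12.8% lay above and 5.46% below. With levels scaled by TMM, edgeR's trimmed mean of M values, the background was 10.6% above and 8.44% below, and the same 6 members stood apart. With no filter, Kdm4c also lay above and Kmt2b below, each at no more than 8 counts. The sums of hepatocyte and erythroid markers given above also stood higher in each HCC library. Fitted log2 fold changes were positive in 19 tested members and negative in 10, with a median of 0.26 beside 0.0046 over all tested genes. That tally includes Setd6, Setd4 and Kmt2a, which passed the filter through HCC libraries alone and were fitted higher. It also includes Nsd2, fitted lower. Without healthy 1 the filter passed 33 members rather than 29. Of these 16 had positive and 17 negative values, and the median was -0.045 beside 0.059 over all genes. With 1 healthy library left, a member can pass the filter through healthy 2 alone, which favours negative values. The medians thus cover different members, and whether the sign rested on healthy 1 was not tested.

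**Figure D2:**
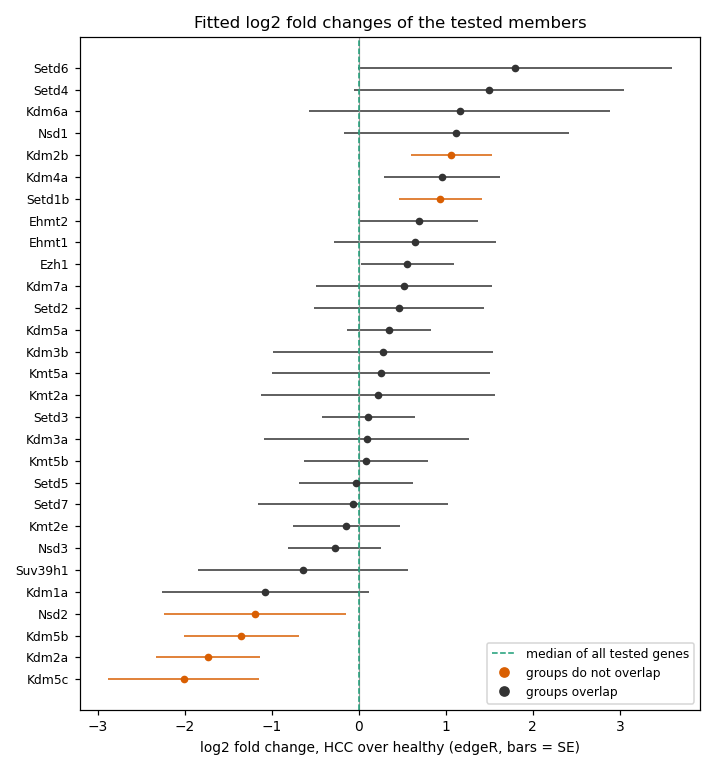
Fitted log2 fold change of the 29 tested members, HCC over healthy, from edgeR with SE bars. Orange points are the 6 members whose groups do not overlap, black points the others, and the dashed line is the median of all tested genes at 0.0046. Most bars cross 0.

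The H3K36 demethylases Kdm2a and Kdm2b stood on opposite sides. Kdm2a and Kdm2b are close relatives that both carry a JmjC demethylase domain and a CXXC zinc finger that binds unmethylated CpG sites, and Kdm2b is known for bringing a Polycomb repressive complex 1 (PRC1) to CpG islands. Kdm2b (ENSMUSG00000029475, chromosome 5, 122870665 to 122989823, minus strand, mm10) was at 42.4, 64.6 and 48.3 CPM in HCC 1, 2 and 3, against 23.8 and 18.7 CPM in healthy 1 and 2. Its lowest HCC library, with 95% Poisson limits of 33.6 to 53.0 CPM, was clear of its highest healthy library, with 17.9 to 31.2 CPM. Group levels were 51.8 ± 11.5 CPM in HCC and 21.2 ± 3.65 CPM in healthy libraries (SD, n = 3 and n = 2; log2 fold change 1.07, SE 0.46; unadjusted p = 0.0448 and adjusted p = 0.9999 in edgeR).

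Kdm2a (ENSMUSG00000054611, chromosome 19, 4314419 to 4398285, minus strand) ran the other way, at 27.8, 16.3 and 10.6 CPM in HCC 1, 2 and 3, against 71.5 and 30.2 CPM in healthy 1 and 2. Healthy 1 held more than any other library, while healthy 2 was close to HCC 1, whose 95% Poisson limits of 20.7 to 36.5 CPM overlapped the 22.7 to 39.3 CPM of healthy 2. Group levels were 18.2 ± 8.73 CPM in HCC and 50.8 ± 29.2 CPM in healthy libraries (SD, n = 3 and n = 2; log2 fold change -1.73, SE 0.59; unadjusted p = 0.0159 and adjusted p = 0.9999 in edgeR). Leaving out healthy 1 brought its log2 fold change to -0.75, and leaving out healthy 2 brought it to -2.26. For Kdm2b the log2 fold change was 1.43 without healthy 1 and 0.82 without healthy 2.

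Within a library, the split of counts between these relatives does not depend on scaling. Of the counts of the pair, Kdm2b held 60.5% (51.8 to 68.5%), 79.9% (72.4 to 85.7%) and 82.0% (73.8 to 88.0%) in HCC 1, 2 and 3, against 25.0% (19.7 to 31.2%) and 38.2% (28.8 to 48.6%) in healthy 1 and 2 (Wilson 95% intervals). The intervals of the HCC libraries lay above those of both healthy libraries. Among 20 pairs of close relatives, 7 had both genes tested and a ratio in every library. The pair of Kdm2b over Kdm2a was the 1 of these with all HCC ratios above both healthy ratios, and Kdm5c over Kdm5b was the 1 with all below, by 0.783 in HCC 1 against 0.828 in healthy 1. Since Kdm2b was higher and Kdm2a lower in every HCC library, their ratio was bound to separate the groups and is not further support. Both ratios were singled out after their values were seen and have no test. The sum of Kdm2a and Kdm2b was 70.2, 80.9 and 58.9 CPM in HCC 1, 2 and 3, against 95.3 and 48.9 CPM in healthy 1 and 2, and the groups overlapped.

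The Kdm5 family acts on H3K4. These JmjC enzymes remove the methyl marks that sit at active promoters. Kdm5a was at 22.3, 44.2 and 37.2 CPM in HCC 1, 2 and 3, against 21.6 and 26.3 CPM in healthy 1 and 2 (log2 fold change 0.35, SE 0.48), and HCC 1 lay between the healthy libraries. Kdm5b (ENSMUSG00000042207, chromosome 1, 134560171 to 134635285, plus strand) was at 12.5, 9.31 and 7.43 CPM in HCC 1, 2 and 3, against 28.8 and 13.2 CPM in healthy 1 and 2 (log2 fold change -1.35, SE 0.66; unadjusted p = 0.0679 in edgeR). The gap between HCC 1 and healthy 2 was 23 against 24 counts, which is within counting error, and only healthy 1 stood clearly higher.

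Kdm5c, an X-linked member (ENSMUSG00000025332, chromosome X, 152233020 to 152274535, plus strand), was at 9.80, 4.07 and 1.59 CPM in HCC 1, 2 and 3, against 23.8 and 11.5 CPM in healthy 1 and 2. Healthy 1 again held the highest level, and HCC 1 and healthy 2 were close. Group levels were 5.15 ± 4.21 CPM in HCC and 17.7 ± 8.70 CPM in healthy libraries (SD, n = 3 and n = 2; log2 fold change -2.01, SE 0.87; unadjusted p = 0.0435 and adjusted p = 0.9999 in edgeR). Without healthy 1 the log2 fold changes of Kdm5b and Kdm5c were -0.46 and -1.18. Kdm5d, the Y-linked member, was counted in 4 of the 5 libraries, with 3, 2 and 1 counts in HCC 1, 2 and 3, against 8 and 0 counts in healthy 1 and 2, and was too low to test.

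The other H3K4 demethylases, the flavin-dependent enzymes Kdm1a (LSD1) and Kdm1b, were low. Kdm1a was at 0.544, 5.82 and 5.31 CPM in HCC 1, 2 and 3, against 9.44 and 4.39 CPM in healthy 1 and 2 (log2 fold change -1.07, SE 1.19), with HCC 2 and HCC 3 between the healthy libraries. Kdm1b had 1, 0 and 7 counts in HCC 1, 2 and 3, against 0 and 6 counts in healthy 1 and 2.

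**Figure D3:**
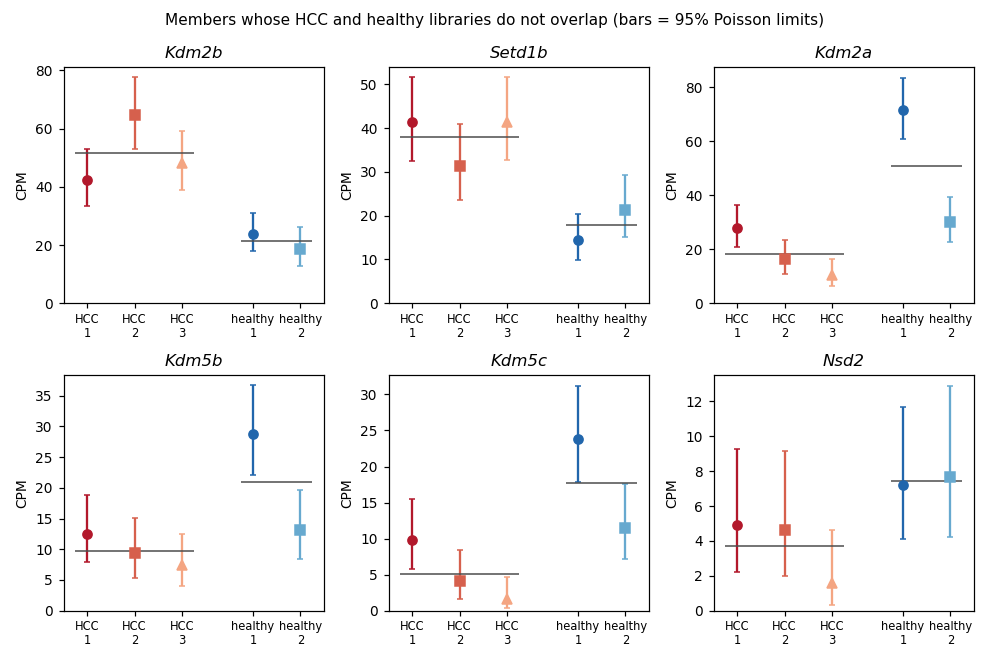
Level in CPM of the 6 members whose HCC and healthy libraries do not overlap, by library, with 95% Poisson limits as bars and group means as lines. Kdm2b and Setd1b are higher in all 3 HCC libraries, at 42.4 to 64.6 and 31.4 to 41.4 CPM. In Kdm2a, Kdm5b and Kdm5c, healthy 1 stands far above healthy 2, whose limits overlap those of HCC 1.

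On the side of H3K4 methyltransferases, Setd1b was the only member of its list with many counts. Setd1a and Setd1b are the catalytic subunits of complexes (COMPASS) that trimethylate H3K4 at promoters. Setd1b (ENSMUSG00000038384, chromosome 5, 123142193 to 123168629, plus strand) was at 41.4, 31.4 and 41.4 CPM in HCC 1, 2 and 3, against 14.4 and 21.4 CPM in healthy 1 and 2. The groups did not overlap, although the limits of HCC 2 (23.6 to 41.0 CPM) and healthy 2 (15.2 to 29.3 CPM) did. Group levels were 38.1 ± 5.75 CPM in HCC and 17.9 ± 4.96 CPM in healthy libraries (SD, n = 3 and n = 2; log2 fold change 0.94, SE 0.48; unadjusted p = 0.0790 in edgeR). Its log2 fold change was between 0.81 and 1.12 with any 1 library left out.

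Setd1a, by contrast, had 4, 0 and 6 counts in HCC 1, 2 and 3, against 3 and 8 counts in healthy 1 and 2. The enzymes of the MLL branch were likewise near the floor. Kmt2a (MLL1) was at 0.544, 5.82 and 7.43 CPM in HCC 1, 2 and 3, against 2.25 and 4.94 CPM in healthy 1 and 2 (log2 fold change 0.23, SE 1.35), with HCC 1 lowest and HCC 3 highest. Kmt2c and Kmt2d, which monomethylate H3K4 at enhancers, reached at most 5.49 and 10.9 CPM. Kmt2b had 1, 0 and 0 counts in HCC 1, 2 and 3, against 3 and 8 counts in healthy 1 and 2.

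Kdm2b and Setd1b, the members with higher levels in every HCC library, both lie on chromosome 5, with 152369 bases between them. Of 13 annotated genes touching that gap, 3 were tested. Orai1, the pore of a store-operated calcium channel, had overlapping groups. All HCC libraries were above both healthy libraries for Rhof, a small GTPase, by a margin of 28.1 CPM in HCC 3 against 27.4 CPM in healthy 1, and below both for the pseudogene Gm6444. For Rhof that order depends on scaling, since the TMM factors were 0.9998 for HCC 3 and 0.8295 for healthy 1. These neighbours were looked up after the values of both members were seen.

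Summed by residue, H3K4 methyltransferases were at 57.7, 46.6 and 56.3 CPM in HCC 1, 2 and 3, against 20.7 and 45.6 CPM in healthy 1 and 2, and H3K4 demethylases at 47.3, 64.6 and 55.7 CPM in HCC 1, 2 and 3, against 87.2 and 58.7 CPM in healthy 1 and 2. The ratio of the first sum to the second was 1.22, 0.721 and 1.01 in HCC 1, 2 and 3, against 0.237 and 0.776 in healthy 1 and 2. Healthy 1 stood apart with the lowest ratio, and healthy 2 lay between HCC 2 and HCC 3.

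**Figure D4:**
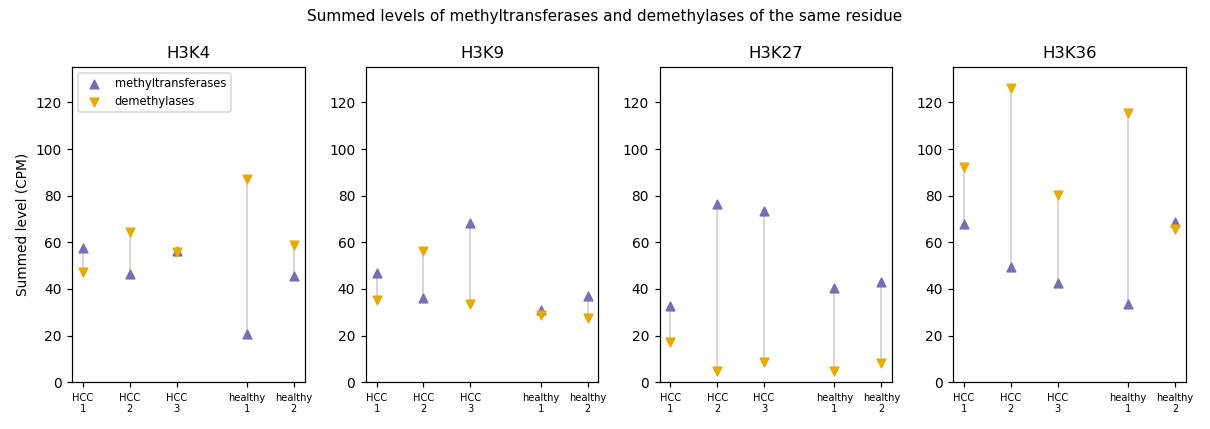
Summed level in CPM of the methyltransferases (triangles up) and demethylases (triangles down) of H3K4, H3K9, H3K27 and H3K36 in each library, HCC left and healthy right. For H3K4 the gap is widest in healthy 1, at 20.7 CPM of methyltransferases and 87.2 CPM of demethylases. For H3K27 the methyltransferases are above the demethylases in all 5 libraries, and for H3K9 and H3K36 the order varies between libraries.

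H3K27 methylation is placed by Ezh1 or Ezh2, the alternative catalytic subunits of Polycomb repressive complex 2 (PRC2), of which Ezh2 is typical of dividing cells and Ezh1 of resting cells. Ezh1 (ENSMUSG00000006920, chromosome 11, 101191115 to 101226463, minus strand) had the highest mean level of all members, at 28.8, 72.7 and 70.1 CPM in HCC 1, 2 and 3, against 40.5 and 25.8 CPM in healthy 1 and 2 (log2 fold change 0.56, SE 0.54). HCC 2 and HCC 3 were high, whereas HCC 1 lay between the healthy libraries. The log2 fold change was 1.11 without healthy 1 and 0.20 without healthy 2. Ezh2 (ENSMUSG00000029687, chromosome 6, 47530139 to 47595341, minus strand) had 7, 6 and 6 counts in HCC 1, 2 and 3, against 0 and 31 counts in healthy 1 and 2, and was not tested.

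Ezh1 thus held most counts of the pair, with 88.3% (77.8 to 94.2%), 95.4% (90.4 to 97.9%) and 95.7% (90.8 to 98.0%) in HCC 1, 2 and 3, against 100.0% (95.9 to 100.0%) and 60.3% (49.2 to 70.4%) in healthy 1 and 2 (Wilson 95% intervals). Healthy 2 stood apart, since it alone had a sizeable number of Ezh2 counts. Markers of proliferation (15 genes) summed to 404, 374 and 394 CPM in HCC 1, 2 and 3, against 199 and 463 CPM in healthy 1 and 2, with healthy 2 highest and healthy 1 lowest as for Ezh2, and the part of dividing cells in these values was not tested. Mki67, a marker of cycling cells, had 4, 0 and 7 counts in HCC 1, 2 and 3, against 0 and 7 counts in healthy 1 and 2.

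Of the H3K27 demethylases, Kdm6a (UTX, ENSMUSG00000037369, chromosome X, 18162575 to 18279936, plus strand) had 28, 0 and 13 counts in HCC 1, 2 and 3, against 0 and 12 counts in healthy 1 and 2. A level of 0 occurred once in each group, and the fitted log2 fold change of 1.16 had an SE of 1.73. Kdm6b (JMJD3) had 4, 8 and 3 counts in HCC 1, 2 and 3, against 11 and 3 counts in healthy 1 and 2, too few to test. The Y-linked relative of Kdm6a, Uty, which is outside the symbol rule, had 10, 11 and 3 counts in HCC 1, 2 and 3, against 5 and 27 counts in healthy 1 and 2. The ratio of Ezh1 and Ezh2 together to both demethylases was 1.88, 16.4 and 8.62 in HCC 1, 2 and 3, against 8.18 and 5.20 in healthy 1 and 2. Both healthy values fell within the range of the HCC libraries.

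H3K36 methyltransferases did not share a direction. Nsd1, Nsd2 and Nsd3 dimethylate H3K36, and Setd2 trimethylates it in transcribed genes. Nsd3 was at 40.8, 21.5 and 22.8 CPM in HCC 1, 2 and 3, against 18.0 and 45.6 CPM in healthy 1 and 2 (log2 fold change -0.28, SE 0.54), so that the healthy libraries enclosed all HCC libraries. Nsd2 (ENSMUSG00000057406, chromosome 5, 33820725 to 33897975, plus strand) was at 4.90, 4.66 and 1.59 CPM in HCC 1, 2 and 3, against 7.19 and 7.68 CPM in healthy 1 and 2 (log2 fold change -1.19, SE 1.05). Although its groups did not overlap, these levels stood for 3 to 16 counts and the Poisson limits of all libraries overlapped.

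Nsd1 had 30, 22 and 8 counts in HCC 1, 2 and 3, against 0 and 18 counts in healthy 1 and 2, and healthy 1 was the library without a count. Setd2 was at 3.81, 10.5 and 13.8 CPM in HCC 1, 2 and 3, against 8.54 and 2.74 CPM in healthy 1 and 2 (log2 fold change 0.46, SE 0.98), with overlapping groups. Ash1l, another H3K36 enzyme, had at most 5 counts in a library. Against the Kdm2 and Kdm4 demethylases together, the ratio of H3K36 methyltransferases was 0.735, 0.392 and 0.530 in HCC 1, 2 and 3, against 0.292 and 1.04 in healthy 1 and 2, with the healthy libraries at both ends.

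Enzymes of H3K9 varied mostly from library to library. Ehmt1 (GLP) and Ehmt2 (G9a) form a heterodimer that mono- and dimethylates H3K9. Ehmt2 was at 16.3, 22.1 and 54.7 CPM in HCC 1, 2 and 3, against 21.6 and 11.5 CPM in healthy 1 and 2 (log2 fold change 0.69, SE 0.68). HCC 3 was far above the other libraries, and without it the log2 fold change was -0.052. Ehmt1 was at 19.0, 14.0 and 4.25 CPM in HCC 1, 2 and 3, against 2.25 and 12.6 CPM in healthy 1 and 2 (log2 fold change 0.64, SE 0.93), with HCC 3 and healthy 1 low. Both genes thus had overlapping groups, and the libraries with the most Ehmt2 relative to Ehmt1 were HCC 3 and healthy 1. Suv39h1, which trimethylates H3K9 in constitutive heterochromatin, had 19, 0 and 18 counts in HCC 1, 2 and 3, against 16 and 22 counts in healthy 1 and 2, and its relative Suv39h2 had at most 2 counts.

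Among H3K9 demethylases, Kdm4a, which acts on H3K9 and H3K36, was at 16.9, 39.6 and 15.4 CPM in HCC 1, 2 and 3, against 5.84 and 16.5 CPM in healthy 1 and 2 (log2 fold change 0.96, SE 0.67). HCC 2 was highest and healthy 1 lowest, and without HCC 2 the log2 fold change was 0.47. Kdm4b had 7, 9 and 4 counts in HCC 1, 2 and 3, against 29 and 1 counts in healthy 1 and 2, with the healthy libraries at both ends. Kdm4c and Kdm4d had at most 4 counts in any library, and Kdm4c had none in either healthy library. Kdm3a and Kdm3b, which remove mono- and dimethyl marks of H3K9, were fitted at log2 fold changes of 0.094 (SE 1.18) and 0.28 (SE 1.26). The levels of Kdm3a in the healthy libraries, 1.35 and 9.88 CPM, enclosed the 1.75 to 8.71 CPM of the HCC libraries. The ratio of summed H3K9 methyltransferases to the Kdm3 and Kdm4 demethylases was 1.32, 0.639 and 2.05 in HCC 1, 2 and 3, against 1.08 and 1.34 in healthy 1 and 2, and both healthy values fell within the range of the HCC libraries.

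The remaining enzymes act on H3K79 or H4K20, or were kept out of the sums by residue. Dot1l, the H3K79 methyltransferase, had 13, 4 and 0 counts in HCC 1, 2 and 3, against 0 and 7 counts in healthy 1 and 2. Kmt5a, which monomethylates H4K20, and Kmt5b, which adds further methyl groups, were fitted at log2 fold changes of 0.26 (SE 1.25) and 0.082 (SE 0.72), and Kmt5c had at most 7 counts. Kdm7a, a JmjC demethylase of H3K9 and H3K27, was at 12.0, 15.1 and 1.59 CPM in HCC 1, 2 and 3, against 4.95 and 6.59 CPM in healthy 1 and 2, with HCC 3 lowest. Kdm8, a JmjC protein, had at most 6 counts. In none of these did the groups stand apart.

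Some SET-domain members are known mainly for substrates other than histones or lack shown activity. Setd3, a histidine methyltransferase of actin, was at 26.1, 33.2 and 21.2 CPM in HCC 1, 2 and 3, against 12.1 and 33.5 CPM in healthy 1 and 2 (log2 fold change 0.11, SE 0.53), and its value turned to -0.36 without healthy 1. Kmt2e (MLL5) was at 14.7, 18.0 and 21.2 CPM in HCC 1, 2 and 3, against 8.54 and 28.5 CPM in healthy 1 and 2 (log2 fold change -0.14, SE 0.62). The healthy libraries enclosed all HCC libraries for both genes. Setd5 was at 9.25, 30.8 and 27.6 CPM in HCC 1, 2 and 3, against 25.2 and 13.7 CPM in healthy 1 and 2 (log2 fold change -0.029, SE 0.65), with HCC 1 lowest. Setd6, which methylates the NF-kB subunit RelA, had 20, 18 and 0 counts in HCC 1, 2 and 3, against 0 and 7 counts in healthy 1 and 2. Setd7 and Setd4 were fitted at log2 fold changes of -0.063 (SE 1.09) and 1.50 (SE 1.55).

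The healthy libraries differed widely from each other. Their values differed at least 2-fold for 19 of 29 tested members (65.5%), beside 50.1% of all tested genes. Healthy 1 was the highest or lowest library for 17 (58.6%), beside 60.6% of all tested genes. Both healthy libraries enclosed all HCC libraries for 4 tested members, Kdm3a, Kmt2e, Nsd3 and Setd3, or 13.8%, beside 17.0% of all tested genes. The variance within groups was 6.68 times the counting variance in the median tested member, and 6.33 times in the median of the 6163 genes at 4.20 to 47.6 CPM. Setd1b, at 1.95 times, and Nsd2, at 1.15 times, were closest to counting error among the 6 members whose groups did not overlap, whereas Kdm2a was at 15.9 times.

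As a description across the 45 members, which share their libraries and their low counts, Pearson's r of log2(CPM + 1) between libraries was highest for HCC 1 with healthy 2 (0.774) and lowest for healthy 1 with healthy 2 (0.514). Over all tested genes it ranged from 0.767 to 0.903. The summed level of all members was 471, 569 and 507 CPM in HCC 1, 2 and 3, against 411 and 460.0 CPM in healthy 1 and 2, all HCC libraries being higher. With TMM scaling the sums were 454, 508 and 507 CPM in HCC 1, 2 and 3, against 496 and 444 CPM in healthy 1 and 2, and the groups overlapped. Scaling by library totals moved the median log2 fold change of all tested genes to 0.16 and that of the members to 0.36.

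**Figure D5:**
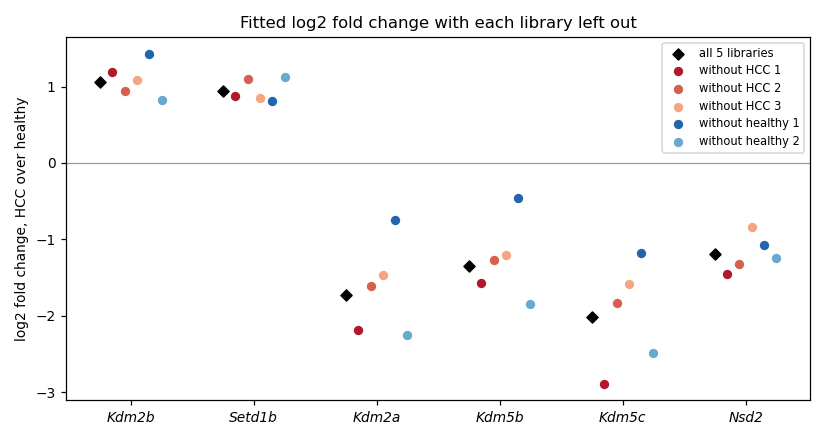
Fitted log2 fold change, HCC over healthy, of the 6 members whose groups do not overlap, with all 5 libraries (black diamonds) and with each library left out in turn (coloured points). Values of Kdm2a, Kdm5b and Kdm5c are nearest to 0 without healthy 1, at -0.75, -0.46 and -1.18. Those of Kdm2b and Setd1b stay between 0.81 and 1.43.

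Partner subunits and related enzymes outside the symbol rule gave no call either. Of 71 genes in 7 lists, 51 were tested, and edgeR called 0 of them, with 1, the JmjC protein Phf2, at an unadjusted p under 0.05. DESeq2 and limma-voom called 0 as well, with 2 and 0 at an unadjusted p under 0.05. Without healthy 2 only 1 healthy library was left, and calls of that fit, which has no spread between healthy libraries, are not given. With all libraries, fitted log2 fold changes were positive in 37 and negative in 14, with a median of 0.40. Every HCC library exceeded both healthy libraries for 11 partners and was below both for 1, beside the background of 12.8% and 5.46%, and with TMM scaling the counts were 10 and 3.

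PRC2 subunits summed to 489.8, 587 and 444 CPM in HCC 1, 2 and 3, against 303 and 514 CPM in healthy 1 and 2, with overlapping groups. Rbbp4, a histone-binding subunit shared with other complexes, was at 263, 317 and 304 CPM in HCC 1, 2 and 3, against 164 and 316 CPM in healthy 1 and 2 (log2 fold change 0.16, SE 0.36). The cofactor Aebp2 was at 20.7, 19.2 and 18.6 CPM in HCC 1, 2 and 3, against 10.8 and 12.1 CPM in healthy 1 and 2 (log2 fold change 0.59, SE 0.57), with groups that did not overlap. The core subunits Eed and Suz12 were fitted at 0.26 (SE 0.62) and -1.15 (SE 0.83) on the log2 scale. Of 8 tested PRC2 genes 6 were fitted higher and 2 lower.

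PRC1, which Kdm2b can recruit, had 7 of 9 tested subunits fitted higher and 2 lower. Its highest gene, the ubiquitin ligase Rnf2, was at 65.8, 49.5 and 34.5 CPM in HCC 1, 2 and 3, against 14.4 and 62.0 CPM in healthy 1 and 2, with healthy 1 lowest and overlapping groups. Phc2 and Cbx7 were above both healthy libraries in every HCC library, and Cbx6 was below. Cbx6, which like Cbx7 encodes a chromodomain subunit, was at 26.1, 27.9 and 26.5 CPM in HCC 1, 2 and 3, against 60.7 and 31.8 CPM in healthy 1 and 2 (log2 fold change -1.02, SE 0.48). The log2 fold change was 1.05 (SE 0.59) for Cbx7 and 1.07 (SE 0.54) for Phc2.

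The LSD1-CoREST complex had 6 of 6 tested subunits fitted higher, with a median log2 fold change of 0.52. LSD1 itself, the member Kdm1a, was fitted at -1.07 (SE 1.19), and the untested Rcor3 was at 2.18, 2.33 and 1.59 CPM in HCC 1, 2 and 3, against 4.95 and 8.23 CPM in healthy 1 and 2, lower in every HCC library. The complex's highest gene, the deacetylase Hdac1, was at 32.6, 44.8 and 52.5 CPM in HCC 1, 2 and 3, against 26.1 and 41.7 CPM in healthy 1 and 2, with overlapping groups. The groups did not overlap for Phf21a and the scaffold Rcor1, with TMM scaling as well. The log2 fold change was 0.70 (SE 0.72) for Phf21a and 1.92 (SE 1.23) for Rcor1. Rcor1 had a count of 0 in healthy 1 and 12 counts in healthy 2.

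COMPASS subunits had 8 of 11 tested genes fitted higher and 0 that stood apart, although Pagr1a lay below both healthy libraries in every HCC library with TMM scaling. Their highest gene, Ash2l, was at 47.9, 25.0 and 37.2 CPM in HCC 1, 2 and 3, against 44.1 and 40.1 CPM in healthy 1 and 2, with HCC 2 lowest. Among readers and partners of H3K9 methylation 5 of 6 were fitted higher. The highest gene, Cbx1 (HP1 beta), was at 71.8, 72.7 and 86.5 CPM in HCC 1, 2 and 3, against 74.2 and 97.2 CPM in healthy 1 and 2, whereas Wiz, a partner of the Ehmt enzymes, and Atf7ip did not overlap, at log2 fold changes of 2.47 (SE 1.14) and 0.76 (SE 0.49). Wiz had 27, 31 and 28 counts in HCC 1, 2 and 3, against 0 and 10 counts in healthy 1 and 2. With TMM scaling Atf7ip overlapped, and Cbx1 lay below both healthy libraries in every HCC library.

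Methyltransferases outside the rule had 4 of 4 tested genes fitted lower. The arginine methyltransferase Prmt5 was at 21.2, 21.5 and 20.7 CPM in HCC 1, 2 and 3, against 69.2 and 14.3 CPM in healthy 1 and 2 (log2 fold change -1.27, SE 0.66), and healthy 1 alone was high. JmjC proteins outside the rule had 5 of 7 fitted higher, and their highest gene, Riox1, was at 44.6, 66.3 and 72.7 CPM in HCC 1, 2 and 3, against 44.1 and 55.4 CPM in healthy 1 and 2. Phf2, a JmjC demethylase of H3K9, was at 15.2, 18.6 and 23.9 CPM in HCC 1, 2 and 3, against 0 and 6.59 CPM in healthy 1 and 2 (log2 fold change 2.50, SE 1.11; unadjusted p = 0.0485 in edgeR). Its lowest healthy library had a count of 0, and Jmjd6 also stood apart.

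Neighbouring genes could add reads to some members, since the strand setting of the counting is not given in the sources used here. The 3' end of Kdm2b overlaps Rnf34 on the opposite strand, and 8.4% of its 31-base words at annotated 3' ends occur there or in other genes in antisense. Rnf34 itself had 8, 3 and 0 counts in HCC 1, 2 and 3, against 3 and 9 counts in healthy 1 and 2. The 3' end of Nsd2 overlaps Nelfa on the opposite strand, and 1.1% of its words occur in other genes in antisense. Nelfa had 47, 98 and 65 counts in HCC 1, 2 and 3, against 37 and 71 counts in healthy 1 and 2. For Kdm2a, Kdm5b, Kdm5c and Setd1b, at most 9.0% of such words occur in other genes on either strand. The share was higher in Setd3 (27.8%, mainly with the pseudogene Gm14026, which had no count in any library), Kdm3b (25.2% in antisense), Kdm1b (24.6% in antisense, with Dek) and Kmt2e (15.1% in antisense, with Srpk2). It also passed 9.0% in Ash1l (12.1% in sense and 12.2% in antisense) and Kmt2c (9.2% in antisense).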

How the data were processed

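RNA of sorted hepatic iNKT cells was made into 3' mRNA libraries (QuantSeq for Ion Torrent, per the labels' protocols). The deposited tables held raw counts per Ensembl gene ID, not normalised by the authors. The genome build mm10 and the tools HISAT2, Bowtie2, bcl2fastq, DESeq, DESeq2, limma and edgeR are listed, with no role, in the submitters' processing notes; the counter, its annotation and its strand setting are not given in the sources used here. IDs were matched to GENCODE M21 symbols (55104 of 55364; the others held 0.763 to 1.08% of counts). Pseudogenes held 31.7 to 38.5% of counts.

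Genes passing edgeR's filterByExpr were tested in all 5 libraries (R 4.3.3, edgeR 4.0.16, TMM, quasi-likelihood F test, Benjamini-Hochberg threshold 0.05), with no covariate. The SE was taken as the log2 fold change divided by the square root of F. Steps were tested on simulated data with 200 changed genes. Alternatives were DESeq2 1.42.0, limma-voom (limma 3.58.1), other scalings and filters, a replicate block, HCC 2 and HCC 3 summed, and each library left out. Poisson and Wilson intervals are at 95%.

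Members always given library by library were those whose groups did not overlap, the 10 with the highest mean and the 5 with the smallest p. Others are given, some by library, where their role group is described. Partners were named where highest in their list or not overlapping, except some that are counted but not reported here by name. Eed, Suz12, Uty and Mki67 were chosen after their values were seen. Members and lists were chosen with earlier results of these data known. The planned permutation test of the summed level is not given, since 3 against 2 libraries allow no two-sided exact p under 0.05. Same-numbered libraries were not shown to be paired.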

Additional observations from a re-analysis of the deposited data

How the results depend on the processing

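All members together had 838 to 978 counts in a library, and the spread within groups was 6.68 times the counting variance in the median tested member. With edgeR, 0 members were called in the fit over all genes, and 0 were called under any of the alternatives run, DESeq2 and limma-voom included. Over all genes the calls were 0 with all libraries, 53 with no filter on low counts, 8 with DESeq2 and 3 with a replicate block, and ranged from 0 to 196 with 1 library left out, the 196 coming without healthy 2. Members whose groups did not overlap numbered 6, and 7 to 19 with 1 library left out, when fewer libraries have to be separated; the background then was 27.8 to 65.3% of tested genes. The difference of the summed member level between the group means, 80.1 CPM, was 19.7 CPM with TMM scaling. The median log2 fold change of the members ranged from -0.045 without healthy 1 to 0.50 without healthy 2, over sets of tested members that differed. Of 181 values of 13 named members under the alternatives, 173 kept their direction and 8 did not. These were Setd5 at 0.21 with library totals, 0.033 with no filter, 0.35 without HCC 1 and 0.67 without healthy 1, Setd3 at -0.013 without HCC 2 and -0.36 without healthy 1, Ehmt2 at -0.052 without HCC 3, and Nsd3 at 0.38 without healthy 2. With each library left out in turn, Ehmt2 ranged from -0.052 to 1.42, Nsd3 from -0.70 to 0.38, Setd3 from -0.36 to 0.84 and Setd5 from -0.46 to 0.67, while Ezh1 ranged from 0.20 to 1.11, Kdm4a from 0.47 to 1.70 and Kdm5a from 0.20 to 0.58. The cause was not tested. Whether the replicate numbers pair the libraries was not settled. Correlations of deviations from group means were -3.57e-05 and 0.125 for the same number. With 2 healthy libraries these deviations mirror each other, so that each correlation recurs with the opposite sign and cannot decide it. With the number as a block, 1 member had an unadjusted p under 0.05 in edgeR, against 3 without it. The count of such members was 0 with HCC 2 and HCC 3 summed, 0 without HCC 2, 0 without HCC 3 and 2 without HCC 1. It is not given for the fits without healthy 1 or healthy 2, which have no spread between healthy libraries. Levels scaled by TMM, an alternative chosen after seeing the data, left the count of members that did not overlap at 6.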
